A study of Danio rerio with 17 samples.

Results

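The cytosolic ribosomal protein genes of the adult zebrafish brain were followed after an injection of domoic acid (DA), a diatom toxin that overstimulates neurons through their ionotropic glutamate receptors. Members were the genes whose platform symbol is rpl or rps followed by a number and at most 1 letter, with or without the suffix of a duplicated copy, together with the stalk genes named rplp and the gene rpsa. Of the 8793 genes with a symbol of their own on the array, 70 met this rule, 42 of the large subunit (rplp0 and rplp2 of the stalk among them) and 28 of the small subunit. They were measured by 74 probe sets, and for the 3 genes with several (rpl3, rpl21 and rps27.1) the brightest one by its mean across the 17 arrays was used. The stalk gene rplp1 and the genes rplp2l and rpl41 were not among them.

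All fish were adults of the AB wild-type strain, 1 year old at exposure, so no group carried a transgene or mutation. DA fish received 1.1 ± 0.2 µg of DA per g of fish by injection into the body cavity, and controls received phosphate-buffered saline in the same way. Brains were taken 24, 48 or 168 h later, and each array read a pool of 3 to 4 brains. There were 3 arrays per treatment and time, except for the 48 h controls with 2, and every time had its own controls. The labels do not say whether pools of 1 group came from separate tanks or days, so p-values measure the spread between these pools. Whole brain was used, so fewer cells of a type and less RNA per cell cannot be told apart.

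Ribosomal proteins and ribosomal RNA together form the small subunit, which reads the messenger RNA, and the large subunit, which joins amino acids. The proteins are needed in matched amounts, and most of their transcripts start with a pyrimidine tract through which growth signalling by mTOR controls their translation together. Many ribosomal protein genes are among the most abundant transcripts of a cell, and in neurons they are also found in axons and dendrites. Their names carry a number taken from the position of the protein on a gel, and small proteins tend to have high numbers. All members are textbook subunits of the same particle, and their roles below are background known mostly from yeast and mammals.

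Some arrays stood apart. The GAPDH probe sets at the 3′ and 5′ ends of the message, whose difference grows when RNA is shortened or incompletely copied, differed by 4.63 on the log2 scale on control replicate 3 at 24 h and by 2.82 to 3.70 on the rest. On DA replicate 1 at 24 h the blank tags read 5.74, above a range of 4.94 to 5.18 on the rest, and the retina, lens and pineal markers had a mean level of 6.52 where the other arrays had 5.33 to 5.99. The 9 hybridisation spike-in probe sets had mean levels of 10.14 to 10.66 on the 24 h control arrays, 9.23 to 10.20 on the 24 h DA arrays, 10.51 and 9.44 on the 48 h control arrays and 8.98 to 9.12 on the 48 h DA arrays. Markers of brain cells ranged widely in mean level. The highest of the neuronal, radial glial and oligodendrocyte lists were snap25a at 13.06, the glutamate transporter slc1a2b at 13.50 and the myelin gene mbpa at 13.89. The lowest of the same lists were elavl4 at 9.80, gfap at 6.99 and mbpb at 7.78.

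The members lay high on the array. Their mean log2 levels ran from 7.18 for rps27l to 13.19 for rps2 with a median of 11.39, and the median of all 15502 probe sets tested was 6.15. Probe sets differ in how well they bind, so these levels give no order of transcript amounts between genes. Only rps27l, a paralog of rps27 that responds to p53 in human cells, and rpl27a at 8.23 lay below 9. Between replicates, the mean of the members on an array had a pooled SD of 0.11. The plot of all members by array shows these means, relative to each gene's own mean. They ran from -0.20 on control replicate 1 at 48 h to 0.23 on control replicate 1 at 24 h. The other controls had 0.06 at 48 h and 0.06 and 0.00 at 24 h, so both extremes differed from their own replicates.

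**Figure D1:**
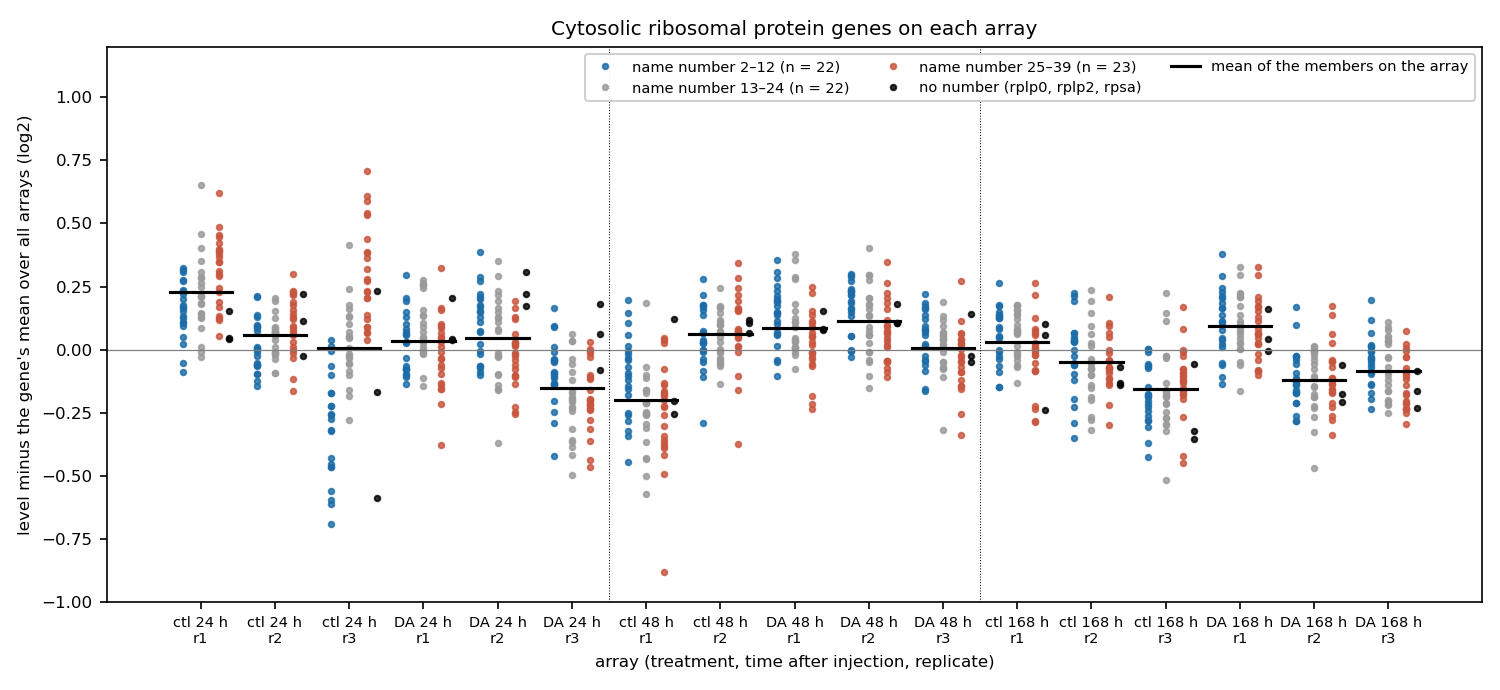
Level of each of the 70 genes on each array minus that gene's mean over the 17 arrays (log2, y axis) for the 17 arrays (x axis), coloured by the number in the gene name, with the mean of all members as a black bar. On control replicate 3 at 24 h the blue low-numbered and red high-numbered genes separate, and on control replicate 1 at 48 h most members lie below 0.

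At 24 h most members lay lower after DA, led by rps29, rpl39, rpl38 and rpl29 with log2 changes of -0.60 to -0.44, while rpsa, rps9 and rps2 lay higher. Of 70 members 50 had a negative change with a median of -0.11, and 48.2% of all probe sets had a negative change, with a median of 0.01. The members share the same arrays and are no independent replicates. Their means were 0.23, 0.06 and 0.00 on control replicates 1, 2 and 3. On DA replicates 1, 2 and 3 they were 0.03, 0.05 and -0.15, so the groups overlapped. The pooled SD of this mean between replicates was 0.11. No member passed in limma's moderated test at a Benjamini-Hochberg adjusted p under 0.05 over all probe sets, where 0.0323% of all probe sets were called lower and 0% higher. At an unadjusted p under 0.05, 15 members were lower against 7.91% of all probe sets, and 1 member, rpsa, was higher against 5.53%. The DA arrays lay below all control arrays for 20 members, where the background was 7.92%, and above them for 3 members (rpsa, rps9 and rps2), where it was 4.86%.

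The smallest adjusted p belonged to rps29, a zinc-binding protein in the head of the small subunit. Its log2 levels were 10.69, 10.40 and 10.76 on the control arrays and 10.16, 10.07 and 9.85 on the DA arrays. Every DA array lay below every control array. The means were 10.03 ± 0.16 (SD, n = 3) after DA and 10.62 ± 0.19 (SD, n = 3) in controls, a difference of -0.58 ± 0.12 (SE) with adjusted p = 0.0710 in limma. Over 30 alternative settings the limma adjusted p ran from 0.0169 to 0.480, and 7 of them were past the threshold. Among these 7, the limma adjusted p was 0.0205 without DA replicate 1 at 24 h, 0.0390 without control replicate 2 at 24 h and 0.0379 without DA replicate 1 at 168 h. Leaving out control replicate 3 at 24 h alone, the array with the highest rps29 level, was not among the 7. With that array and DA replicate 1 at 24 h both left out the limma adjusted p was 0.0412. Over the 30 settings the change ran from -0.69 to -0.47.

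Next came rpl39, one of the smallest proteins of the large subunit, which lines the tunnel through which the new protein leaves. It read 10.46, 9.82 and 10.45 on the control arrays and 9.68, 9.77 and 9.47 on the DA arrays. The groups did not overlap, but control replicate 2 lay close to the DA arrays. The difference was -0.60 ± 0.14 (SE), with adjusted p = 0.116 in limma. Without control replicate 2 it was -0.81 with an adjusted p of 0.0145 in limma, and without control replicate 3 it was -0.50 with an adjusted p of 0.263.

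The large-subunit gene rpl38, whose loss in the mouse reduces the translation of Hox messages, gave 12.54, 12.50 and 12.74 in controls and 12.36, 12.09 and 12.00 after DA. The groups did not overlap. Its difference was -0.44 ± 0.10 (SE), 1.36-fold, with adjusted p = 0.116 in limma. Without DA replicate 1 it was -0.55 with a limma adjusted p of 0.0188, and without control replicate 3 it was -0.37 with 0.265.

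For rpl29, a large-subunit protein that also binds heparin in mammals, the control arrays read 10.37, 10.17 and 10.66 and the DA arrays 10.04, 9.91 and 9.64. Again each DA array was lower than each control array, with a difference of -0.54 ± 0.14 (SE) and adjusted p = 0.140 in limma. Control replicate 3 held the highest value. Over 30 alternative settings the rpl29 change ran from -0.65 to -0.41 and its limma adjusted p from 0.0450 to 0.611, with 1 past the threshold. The large-subunit gene rpl27a followed with 8.71, 8.40 and 8.59 in controls and 8.39, 8.13 and 8.13 after DA, a difference of -0.36 ± 0.11 (SE) and a limma adjusted p of 0.204. In rps25, which some viral messages need to start translation without a cap, the controls read 12.17, 12.09 and 12.25 and the DA arrays 11.89, 11.84 and 11.85. These groups stood well apart because both were narrow, and the difference was -0.31 ± 0.10 (SE) with adjusted p = 0.233 in limma. The others with an unadjusted p under 0.05 were rpl37, rpl26, rpl35, rpl36, rpl22, rpl34, rps27l, rps21 and rps26, with changes of -0.47 (rps21) to -0.27 (rps27l).

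The members with a positive change were led by rpsa, which is also known as a precursor of the laminin receptor. It read 12.41, 12.48 and 11.78 in controls and 12.57, 12.68 and 12.55 after DA. The third control array alone made the control group wide. The difference was 0.37 ± 0.16 (SE) with adjusted p = 0.332 in limma, and 0.15 without control replicate 3. For rps9 the controls read 11.69, 11.68 and 11.61 and the DA arrays 11.71, 11.99 and 11.95, a difference of 0.22 ± 0.11 (SE) with a limma adjusted p of 0.386. The proteins of rps2, rps3 and rps9 lie around the channel where the message enters the small subunit. In rps2 the change was 0.21, or 0.10 without control replicate 3, and in rps3 it was 0.26, or 0.05 without that array. Leaving it out changed rps9 little, to 0.19. The large-subunit gene rpl9 had the fifth smallest p among the positive changes, at 0.13 with an adjusted p of 0.549 in limma.

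**Figure D2:**
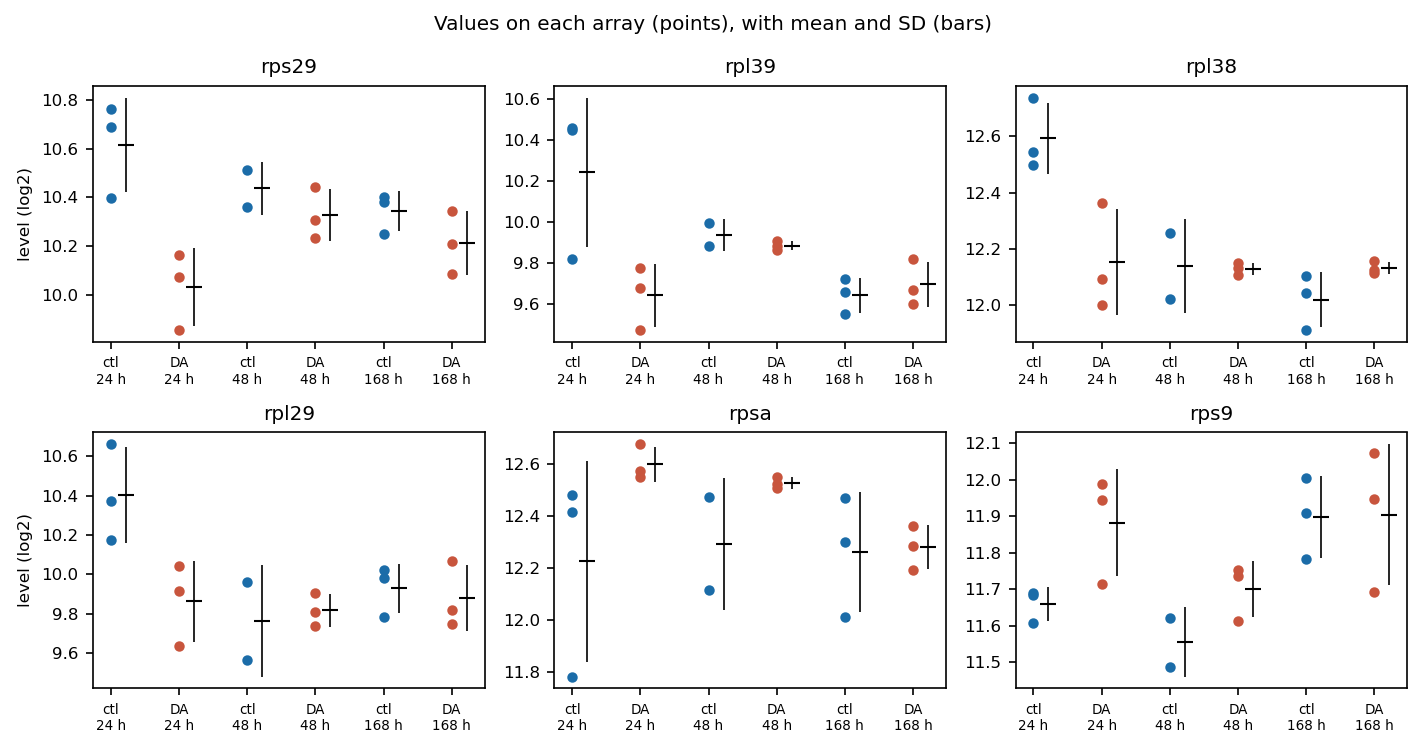
Log2 level (y axes, 1 scale per panel) on each array of the 6 groups (x axes) for rps29, rpl39, rpl38, rpl29, rpsa and rps9; points are arrays, blue for control (ctl) and orange for DA, and the bars give the mean and SD. In the first 4 genes the 24 h controls hold the highest mean, and in rpsa 1 of the 24 h controls lies at 11.78, below every other array.

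By subunit, 30 of 40 large-subunit members outside the stalk were lower at 24 h with a median of -0.14, with 10 of them below an unadjusted p of 0.05. In the small subunit 19 of 28 were lower with a median of -0.09, with 5 lower at that threshold. Of all probe sets, 7.91% were lower at that threshold. Of the stalk genes, which recruit elongation factors, rplp0 had a change of 0.12 and rplp2 one of -0.12, neither past the threshold. The proteins that bind Mdm2 when ribosome assembly is disturbed had changes of 0.24 for rpl5a, 0.07 for rpl5b and -0.23 for rpl11, with limma adjusted p-values of 0.565, 0.882 and 0.391. Without control replicate 3 these 3 changes were -0.04, -0.16 and -0.27, so the positive signs rested on that array. The S6 kinase substrate rps6 had a change of 0.09 and rps27a, which is made as a fusion with ubiquitin, one of -0.03. Among the proteins around the exit of the tunnel the changes were -0.08 for rpl17, -0.02 for rpl19, -0.32 for rpl23a and -0.33 for rpl26. They were -0.20 for rpl31, -0.45 for rpl35 and -0.60 for rpl39.

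The changes at 24 h followed the number in the gene name. This feature was chosen after the values were seen, and it is given as a description with no test. The 22 members numbered 2 to 12 had a median change of 0.09 with 9 lower, the 22 numbered 13 to 24 a median of -0.08 with 17 lower, and the 23 numbered 25 to 39 a median of -0.30 with 23 lower. Of the 15 lower members with an unadjusted p under 0.05, 13 were in the highest class, 2 in the middle and 0 in the lowest. Of all probe sets, 7.91% were lower at that threshold. The groups did not overlap, with DA lower, in 15 members of the highest class, 4 of the middle and 1 of the lowest. This held for 7.92% of all probe sets. Across the 67 numbered genes, which share the same 6 arrays and are no independent replicates, the Spearman correlation between number and change was -0.80.

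**Figure D3:**
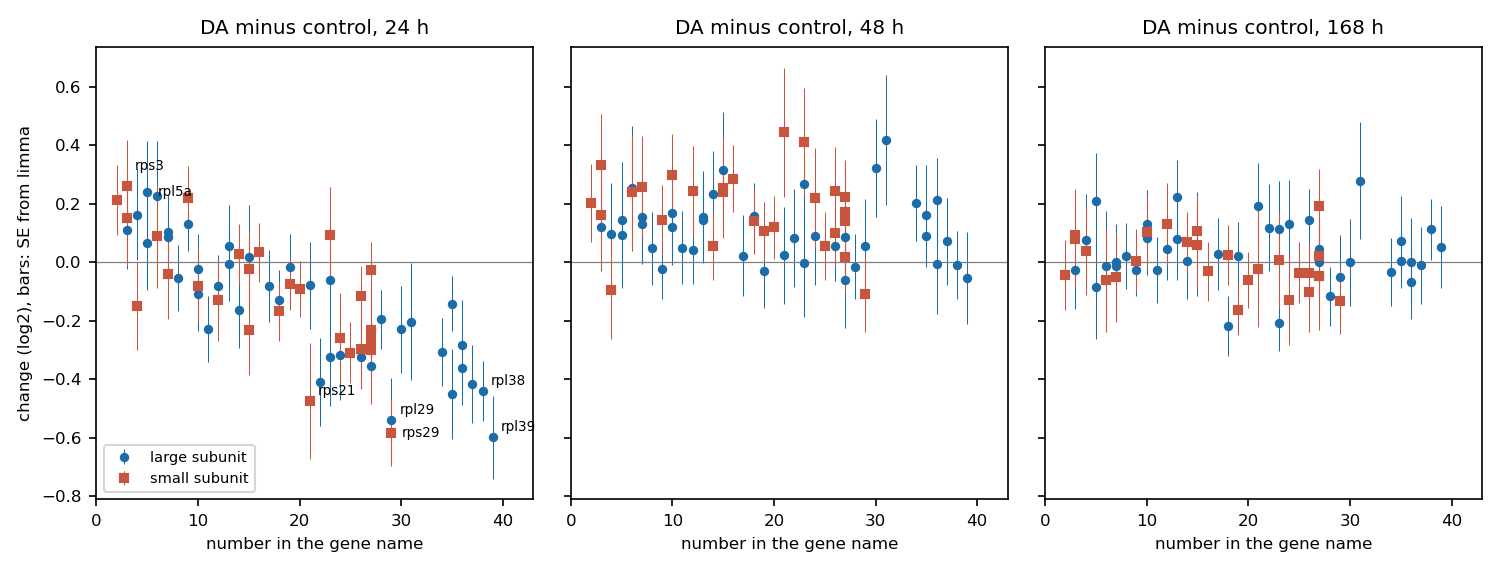
Change after DA (log2, y axis) with its SE against the number in the gene name (x axis) at 24, 48 and 168 h for the 67 numbered members, circles for the large and squares for the small subunit. At 24 h the points slope from low to high numbers, down to about -0.6 for rps29 and rpl39, where the positive values of rps3 (0.26) and rpl5a (0.24) become 0.05 and -0.04 without control replicate 3, and at 48 and 168 h no such slope is seen.

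The low-minus-high balance of an array, the mean of the low-numbered members minus that of the high-numbered members, shows which arrays carried this order. It was -0.15, -0.08 and -0.60 on control replicates 1, 2 and 3 at 24 h, and -0.05 to 0.14 on the 14 other arrays. All 24 h controls thus had the lowest values of the balance, and control replicate 3, the array with the GAPDH difference of 4.63, lay far below the other pair. Without that array the Spearman correlation at 24 h was -0.61 and the class medians were -0.08, -0.12 and -0.27, with 58 of 70 members lower. With all arrays in and the GAPDH difference added to the fit, the correlation was also -0.61 and the class medians were -0.09, -0.15 and -0.32. In this measure control replicate 3 lay far from all other arrays. The fit therefore leaned on the same array and is no separate check. The order of the classes was the same in each of these fits. The median of the low-numbered genes was 0.09 with all arrays and no covariate, and below 0 in the other fits. Control replicate 1 at 48 h had the next highest GAPDH difference, 3.70, and the highest balance of all arrays, 0.14. The part of RNA quality in the remaining order was not tested.

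**Figure D4:**
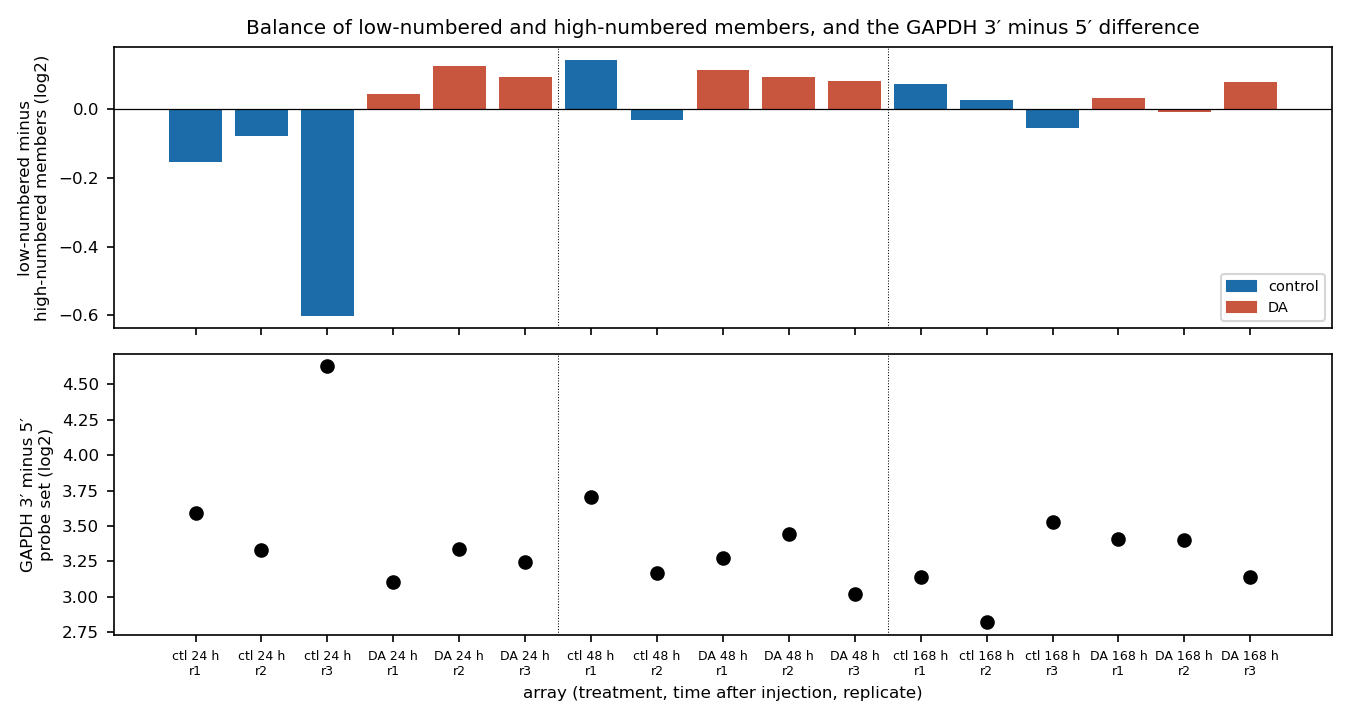
Upper panel: mean of the low-numbered minus mean of the high-numbered members (log2, y axis) on each of the 17 arrays (x axis), control in blue and DA in orange. Lower panel: the GAPDH 3′ minus 5′ difference (log2) on the same arrays. Control replicate 3 at 24 h is the lowest bar at -0.60 and the highest point at 4.63. Control replicate 1 at 48 h is the next highest point at 3.70 and the highest bar at 0.14.

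The median over members at 24 h was -0.05 with 41 lower when DA replicate 3 was left out, -0.08 with 42 lower without control replicate 1, and -0.13 with 52 lower without DA replicate 1. DA replicate 3 had a members' mean of -0.15 and a spike-in level of 9.23, while control replicate 1 had 0.23 and 10.62. At 48 h control replicate 1 had -0.20 with 10.51, and DA replicates 1 and 2 had 0.09 and 0.11 with 8.98 and 9.12. On control replicates 1, 2 and 3 at 168 h the members' means were 0.03, -0.05 and -0.16 with spike-in levels of 9.56, 9.36 and 9.20. DA replicates 1, 2 and 3 at 168 h had 0.09, -0.12 and -0.09 with 9.82, 9.29 and 9.14. A link between these measures was not tested. Taking the spike-in mean into the fit left 42 members lower at 24 h, with a median of -0.08.

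At 48 h most members lay higher after DA, led by rps16, rpl23, rps23 and rps10. Of 70 members 59 had a positive change with a median of 0.14, where 50.2% of all probe sets were positive and 49.8% negative, with a median of 0.00. No member was called in limma and no probe set was either (0% in both directions), and 4 members were higher at an unadjusted p under 0.05 against 2.61% of all probe sets, with 0 lower against 2.12%. The DA arrays lay above both controls for 10 members, where the background was 13.3%, and below for 1 member, rplp0, where it was 14%. Neither share of the members was above that of all probe sets by more than 1 gene.

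The 4 were rps16, whose tail reaches the tRNA in the P site, rpl23, which lies at the subunit interface where eIF6 binds, rps23 of the decoding centre and rps10, a gene mutated in human Diamond-Blackfan anaemia. For rps23 the controls read 11.03 and 11.56 and the DA arrays 11.81, 11.72 and 11.60, a difference of 0.41 ± 0.18 (SE). For rps16 they read 11.79 and 11.99 against 12.22, 12.20 and 12.11, a difference of 0.29 ± 0.11 (SE). For rpl23 they read 10.72 and 11.10 against 11.20, 11.15 and 11.20, a difference of 0.27 ± 0.11 (SE). In all 3 the DA arrays were close together and control replicate 1 was the lowest array. The rps10 controls read 10.46 and 10.86 and its DA arrays 10.98, 11.06 and 10.85, so that the groups overlapped, with a difference of 0.30 ± 0.14 (SE). The limma adjusted p was 1 for all 4. Next by p was rps27a at 0.22, and the negative changes with the smallest p were rps29 at -0.11, rps4x at -0.09, rplp0 at -0.07, rpl27 at -0.06 and rpl39 at -0.05.

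These differences rested on control replicate 1, the array on which the members' mean was -0.20. Without it the median change was 0.01, 31 of 70 members were lower and 0 had an unadjusted p under 0.05. Without control replicate 2 in its place the median was 0.27, 6 members were lower and 15 were higher at that threshold, against 4.46% of all probe sets in that fit. For rps23 the change was 0.15 without control replicate 1 and 0.68 without control replicate 2. For rpl31 control replicate 1 read 9.94 and control replicate 2 read 10.87, beside 10.94, 10.84 and 10.71 on the DA arrays. The members' mean was -0.20 and 0.06 on the controls and 0.09, 0.11 and 0.01 on the DA arrays. The 12 microglia and leukocyte markers had mean levels of 6.81 and 6.99 on these controls and 7.01 to 7.18 on the DA arrays, with 7 of 12 higher. The 9 erythroid markers had at least 6.99 on both controls and 6.61 to 6.94 on the DA arrays, with 8 of 9 lower. The part of these cells in the members' changes was not tested. By subunit the medians were 0.09 for the 40 large-subunit and 0.21 for the 28 small-subunit members, and the Spearman correlation with the name number was -0.20.

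At 168 h the members of DA and control brains lay close together. The median change was 0.01 with 27 of 70 lower, and 57.3% of all probe sets were lower and 42.7% higher, with a median of -0.02. No member was called in limma (0% of all probe sets in both directions), and 1, rpl23, had an unadjusted p under 0.05, against 1.81% of all probe sets lower and 1.21% higher. The DA arrays lay below the controls for 3 members (7.02% of all probe sets) and above for 1 (3.85%). For rpl23 the controls read 11.28, 11.39 and 11.38 and the DA arrays 11.19, 11.05 and 11.19, a difference of -0.21 ± 0.10 (SE). The other 2 were rpl18 at -0.22 and rps19, a Diamond-Blackfan gene in human, at -0.16. The member above was rpl38, at 11.91, 12.10 and 12.04 in controls and 12.11, 12.16 and 12.13 after DA, a difference of 0.11 ± 0.10 (SE). The limma adjusted p was 0.999 for each of these 4. The Spearman correlation with the name number was -0.11. The positive changes with the smallest p were rpl13a at 0.22, rps27.2 at 0.19, rpl31 at 0.28, rpl26 at 0.15 and rpl21 at 0.19.

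The change after DA was then compared between times within the same fit. The difference of the DA effect between 48 and 24 h was positive for 62 of 70 members, with a median of 0.27, and 49.4% of all probe sets were positive. No member was called in limma, where 0% of all probe sets were called, and 17 members had an unadjusted p under 0.05, all positive, against 4.19% of all probe sets positive and 2.28% negative. The smallest p belonged to rps21 at 0.92 ± 0.30 (SE), followed by rpl36 at 0.58 and rpl34 at 0.51, each with adjusted p = 0.660 in limma. The rps21 levels were 12.20, 12.04 and 12.33 in 24 h controls and 12.07, 11.55 and 11.53 after DA, then 11.34 and 12.06 in 48 h controls and 12.29, 12.21 and 11.93 after DA. Without control replicate 1 at 48 h the median difference was 0.13 and 1 member had an unadjusted p under 0.05. Between 168 and 24 h the median difference was 0.15, limma called 0 members (0% of all probe sets) and 10 had an unadjusted p under 0.05, all positive, against 8.67% of all probe sets, with rpl39 at 0.65 and rpl38 at 0.55. Between 168 and 48 h it was -0.10, limma called 0 (0% of all probe sets) and 2 were below that threshold against 3.1%, rpl23 at -0.48 and rpl18 at -0.37. The moderated F test over the 3 times called 0 members, with 0% of all probe sets called, and 13 had an unadjusted p under 0.05 against 6.26% of all probe sets. For the mean of the 3 effects limma called 0 members and 0% of all probe sets, and the 4 members with an unadjusted p under 0.05 were rps29 at -0.28, rpl39 at -0.20, rps3 at 0.23 and rpsa at 0.21, where 5.26% of all probe sets were lower and 2.42% higher. By sign 38 of 70 were higher, and 49.8% of all probe sets were.

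Among the controls themselves, most members lay lower at 168 h than at 24 h, and rpl38 passed the test. At 48 h the size of the difference depended on which control array was kept. These comparisons use the same 24 h control arrays as the 24 h DA comparison, so that the values of each gene are given side by side and are not independent. From 24 to 168 h 54 of 70 members were lower with a median of -0.16, against 48.1% of all probe sets. Limma called 1 member lower, rpl38 (0.142% of all probe sets), and none higher (0.303%). At an unadjusted p under 0.05, 17 were lower against 5.71% of all probe sets and 1, rps9, was higher against 5.56%. The groups did not overlap for 23 lower members (7.66% of all probe sets) and 2 higher members (8.97%).

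The control levels of rpl38 were 12.54, 12.50 and 12.74 at 24 h, 12.02 and 12.26 at 48 h and 11.91, 12.10 and 12.04 at 168 h, so the 24 h arrays were above all later ones. From 24 to 168 h rpl38 fell by 0.57 ± 0.10 (SE), 1.49-fold, from 12.59 ± 0.13 (SD, n = 3) to 12.02 ± 0.10 (SD, n = 3), with adjusted p = 0.0252 in limma. Over 30 alternative settings this adjusted p ran from 0.00597 to 0.182 and 20 were past the threshold. Leaving out any 1 of 5 of the 6 arrays compared ended the call, with limma adjusted p-values of 0.0579 and 0.0940 without control replicates 1 and 3 at 24 h and of 0.111, 0.0715 and 0.0561 without control replicates 1, 2 and 3 at 168 h. With the GAPDH difference as a covariate the limma adjusted p was 0.134. The F test over the 3 control times called rpl38 too, with adjusted p = 0.0412 in limma (0.400% of all probe sets called), and 19 members had an unadjusted p under 0.05 against 11.7%.

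For rpl39 the change from 24 to 168 h in controls was -0.60 (adjusted p = 0.0861 in limma) beside -0.60 after DA at 24 h. For rps25 these were -0.42 (adjusted p = 0.103 in limma) and -0.31, for rpl29 -0.47 and -0.54, and for rpl37 -0.42 and -0.42. The positive changes with the smallest p were rps9 at 0.24, rpl23 at 0.18, rpl18 at 0.12, rpl9 at 0.11 and rps6 at 0.19. From 24 to 48 h 51 of 70 members were lower and 19 higher with a median of -0.18, where 48.6% of all probe sets were higher. This median was -0.03 without control replicate 1 at 48 h and -0.30 without control replicate 2 at 48 h. Limma called 0 (0% of all probe sets), and an unadjusted p under 0.05 was reached by 16 lower members against 2.7% and by 0 higher members against 4.41%, led by rpl27a at -0.62. The Spearman correlation with the name number was -0.73 from 24 to 168 h and -0.70 from 24 to 48 h. Both include control replicate 3 at 24 h, with its low-minus-high balance of -0.60, and their values without that array are not given here. From 48 to 168 h the control median was 0.01, limma called 0 members (0.103% of all probe sets lower and 0.0903% higher), and 1 member was lower and 3 were higher at an unadjusted p under 0.05, where the background was 6.62% and 4.13%.

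In 4 members, rpl29, rpl34, rpl38 and rps25, all 3 control arrays at 24 h lay above each of the 14 other arrays, where 0.464% of all probe sets did so. For rpl34 these were 11.37 to 11.43 against 10.77 to 11.24 elsewhere, and for rps25 12.09 to 12.25 against 11.56 to 11.94. No member had all 24 h DA arrays below all others, where the background was 0.606%, or above all others, where it was 0.445%. The only other member with a group above all others was rpl23 in the 168 h controls, at 11.28 to 11.39 against 10.72 to 11.22, with a background of 0.277%.

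The DA arrays of the 3 times were compared in the same way. From 24 to 48 h 52 of 70 were higher with a median of 0.09, where 48.7% of all probe sets were higher. Limma called 0 (0.0129% of all probe sets lower and 0.348% higher), and 7 were higher at an unadjusted p under 0.05 against 10.3% of all probe sets. The smallest p was that of rps27l at 0.37 with a limma adjusted p of 0.124, from 6.80, 7.04 and 7.18 to 7.33, 7.36 and 7.45. From 48 to 168 h 54 were lower with a median of -0.13, where 53% of all probe sets were lower. Limma called 0 (0.716% lower and 0.323% higher), with 8 lower and 2 higher at an unadjusted p under 0.05 against 7.93% and 3.79%. The smallest p was that of rps2 at -0.36, from 13.42, 13.42 and 13.36 to 13.13, 13.05 and 12.96, groups that did not overlap. From 24 to 168 h the median was -0.01 with 38 of 70 lower, where 54.4% of all probe sets were lower. Limma called 0 (0.0258% lower and 0.206% higher), and the Spearman correlation with the name number was 0.26, against 0.00 from 24 to 48 h. The F test over the DA times called 0 members (1.15% of all probe sets), and 5 had an unadjusted p under 0.05 against 15.6%.

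Duplicated copies and paralogs were set side by side. The 24 h changes were -0.30 for rps27.1, -0.23 for rps27.2 and -0.27 for rps27l, and at 48 h they were 0.14, 0.17 and 0.02. For rps26 and rps26l they were -0.30 and -0.11 at 24 h and 0.24 and 0.10 at 48 h. At 168 h rpl5a had -0.09 ± 0.18 (SE) and rpl5b 0.21 ± 0.16 (SE), and the difference between them was not tested. Probe sets of 1 gene did not always match. The second probe set of rpl3, at 11.20, had a 24 h change of 0.61 beside 0.11 for the one used, and the other 2 of rps27.1 had -0.43 and -0.16. The second probe set of rpl21 lay at 4.35, near the bottom of the range, with 0.17 beside -0.08.

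Other gene groups, most of them of protein synthesis or its control, were set beside the members. The 59 mitochondrial ribosomal protein genes, which build the ribosome inside mitochondria, had medians of -0.16, 0.16 and 0.03 at 24, 48 and 168 h, with 0 called by limma and 9 lower and 1 higher at 24 h at an unadjusted p under 0.05, where 7.91% of all probe sets were lower and 5.53% higher. The 85 oxidative phosphorylation genes had -0.13, 0.21 and -0.02, with 0 called. At that threshold 16 were lower and 1 higher at 24 h, and 2 lower and 14 higher at 48 h. The 48 h shares of all probe sets were 2.12% lower and 2.61% higher. Relative to each gene's own mean, their array means at 48 h were -0.19 and 0.06 on control replicates 1 and 2. On the DA arrays these means were 0.16, 0.09 and 0.12. The 92 ribosome biogenesis factors, which process ribosomal RNA and assemble subunits, had medians of 0.00, 0.05 and -0.03, with 8 lower and 8 higher at 24 h, against those same 24 h shares of 7.91% and 5.53%, and 0 called. Those with the smallest p at 24 h were rpf2, which loads the 5S particle with rpl5 and rpl11 in yeast, at -0.74, and the nucleolar gene ncl at 0.50, with limma adjusted p-values of 0.127 and 0.155. From 24 to 168 h in controls 1 of the 92 was called, nob1, the endonuclease that trims the small-subunit RNA, which fell by 0.83 with adjusted p = 0.0227 in limma, where 0.142% of all probe sets were called lower.

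The 19 ribosome-associated genes outside the rule, such as elongation factors and the nascent chain complex, had medians of 0.00, 0.13 and 0.01, with 3 lower and 3 higher at 24 h and 0 called. The 24 h background of 7.91% lower and 5.53% higher holds for this list and for those of growth signalling and the p53 response. The eEF1 subunit eef1g was at 0.46 and the large-subunit paralogs rpl7l1 and rpl22l1 were at -0.32 and -0.39 there, with limma adjusted p-values of 0.188, 0.207 and 0.279. The 25 growth signalling genes had medians of 0.06, 0.02 and 0.00 with 1 lower and 3 higher at 24 h and 0 called, and the S6 kinase gene rps6kb1b was at -0.44 with an adjusted p of 0.305 in limma. The 9 p53 response genes had medians of 0.12, -0.05 and -0.01 and 0 below an unadjusted p of 0.05 at 24 h. In controls from 24 to 168 h 1 of these 9, the stress-induced gene gadd45ba, rose by 0.84 with adjusted p = 0.0284 in limma, where 0.303% of all probe sets were called higher.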

How the data were processed

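The 17 arrays were Affymetrix Zebrafish Genome arrays, a 1-colour platform. Values were deposited by the authors as log2 levels per probe set. They were made with oligo, RMA and limma per the submitters' processing notes (versions not given in the sources used here). Because RMA makes the arrays' distributions alike, a change shared by most transcripts is removed. Arrays hold no counts, and their number limits the precision. Of 15617 probe sets, 115 manufacturer's controls were left out and 15502 were tested with no filter. One model with 1 mean per group was fitted with limma 3.58.1 in R 4.3.3 (11 residual and 4.39 prior degrees of freedom, median residual SD 0.16) and tested on simulated data. All tests were two-sided, with Benjamini-Hochberg adjustment across the 15502 probe sets and a threshold of 0.05. All changes are differences of log2 values.

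Members and lists were chosen with earlier results of these data known. Named were members called, the 5 with the smallest p per direction, fixed genes of known role and paralogs; of each list, up to 3 genes. The name number was added after the values were seen. Replicate numbers were not taken as pairs: same-numbered arrays of a time had correlations of -0.33 to 0.22. Symbols matched RefSeq for 70 of 70 members. Protein, promoter and genome sequences were not used here.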

Additional observations from a re-analysis of the deposited data

Results flagged for a closer look

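The 17 blank tags, which have no target in the fish and enter no comparison, read 5.74 on DA replicate 1 at 24 h, above all control arrays. Without that array 52 of 70 members were lower at 24 h, with a median of -0.13, and limma called 2 members (rps29 and rpl38). The share of all probe sets called in that fit is not given here, so these calls are not set against a background.

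For rpl38 every DA array lay below every control array at 24 h and above every control array at 168 h. Of all probe sets, 7.92% did the former and 3.85% the latter, and the share that did both was not counted. The difference between these effects was 0.55 ± 0.15 (SE), with adjusted p = 0.544 in limma, so it did not pass.

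For rpl23 the DA arrays lay above the controls at 48 h and below them at 168 h, a difference of -0.48 ± 0.15 (SE) with adjusted p = 1 in limma. Of all probe sets, 13.3% lay above at 48 h and 7.02% below at 168 h, and the share that did both was not counted.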

How the results depend on the processing

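The limits are 2 or 3 arrays per group, 24 h controls shared by several comparisons, and arrays that differed in quality. The part of array quality in the members' changes was not tested. The only named member called in the DA comparisons or in controls from 24 to 168 h was rpl38, in the controls. No alternative turned its sign around, and 20 of 30 kept the call. Over all named members and alternatives, 39 values changed sign without being called, and 1975 kept both sign and call status. Apart from the unadjusted counts, the counts of members in this section are given without the shares of all probe sets in the same fits. They are therefore not set against a background. At 24 h limma called 0 members, but 1 with array medians set equal, 2 with array weights, 3 with the blank level as a covariate, 2 with both doubted arrays left out, 1 at an adjusted p under 0.10 and 16 at an unadjusted p under 0.05. The unadjusted counts, with the shares of all probe sets, were 4 at 48 h (2.12% lower, 2.61% higher) and 1 at 168 h (1.81% lower, 1.21% higher). They were 4 for the mean effect (5.26% lower, 2.42% higher) and 17 for the difference between 24 and 48 h (2.28% lower, 4.19% higher). The F test over times had 13 (6.26%). In controls there were 16 from 24 to 48 h (2.7% lower, 4.41% higher) and 18 to 168 h (5.71% lower, 5.56% higher). Over control times there were 19 (11.7%) and over DA times 5 (15.6%). With array weights 42 members were lower at 168 h, 1 was called for the mean effect and 9 over DA times. In controls from 24 to 168 h and over the control times, 0 members were called with quantile normalisation, cyclic loess, spike-in or GAPDH covariates or only the groups compared, and 2 with the blank level or at an adjusted p under 0.10. The Spearman correlation with name number was -0.56 at 24 h and 0.45 (from 0.73) for the difference between 24 and 48 h with both doubted arrays left out.

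Leaving out each array in turn gave medians of -0.15 to -0.05 with 41 to 58 lower at 24 h, 0.0059 to 0.27 with 6 to 31 lower at 48 h and -0.04 to 0.07 with 19 to 45 lower at 168 h. Members called ran from 0 to 2 at 24 h, in controls from 24 to 168 h and over control times, and were 0 at 48 h, at 168 h, for the mean effect, for the differences between times, in controls from 24 to 48 h and over DA times. The median of the difference between 24 and 48 h ran from 0.13 to 0.39, in controls from -0.30 to -0.0306 to 48 h and from -0.21 to -0.10 to 168 h. The Spearman correlation ran from -0.84 to -0.61 at 24 h and from 0.48 to 0.77 for the difference.

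With the replicate number as a block, which the labels do not support as a pairing, limma called 0 members at 24 h, and rpl38 in controls from 24 to 168 h had adjusted p = 0.0461. Over the control times rpl27a took the place of rpl38, with adjusted p = 0.0428 in limma. Members have no probe sets with the suffix _s_at or _x_at, so leaving those out changed nothing. Plans that needed protein or promoter sequences were not run.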
